A study of Homo sapiens with 6 samples.

Results

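Myosins are the actin-based motors of the cell, and the genes described here are the 52 protein-coding genes, of 58219 gene identifiers counted, whose symbol is MYH, MYL or MYO followed by a digit. They comprise 14 heavy chains of conventional (class II) myosin (MYH), 13 light chains (MYL) and 25 heavy chains of the unconventional classes (MYO). Polyadenylated RNA was sequenced from SNU-449, an established human hepatocellular carcinoma line, in 3 libraries of a stable line expressing wild-type Yes (Yes WT) and 3 of a stable line expressing Yes T348I. All 6 libraries came from cells exposed to 100 nM dasatinib, which inhibits kinases of the SRC and ABL families, and no library without the drug was analysed here. Yes is a SRC family tyrosine kinase encoded by YES1, and T348I changes its gatekeeper residue in the drug-binding pocket. The comparison asks which myosin transcripts differed between the lines in the presence of the drug. The labels give 1 stable line for each form of Yes and say neither whether a line is a clone or a pool nor whether libraries came from separate cultures. What the p-values below measure is the scatter among these libraries, and it may be technical.

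Conventional myosin is a hexamer of a pair of heavy chains, a pair of essential light chains and a pair of regulatory light chains. It assembles into bipolar filaments that pull on actin, in the sarcomeres of muscle and in the stress fibres, cell cortex and cytokinetic ring of other cells. Phosphorylation of the regulatory light chain by kinases such as MYLK and ROCK switches the non-muscle form on, and myosin phosphatase reverses it. Unconventional myosins mostly do not form such filaments. Many of them bind calmodulin or related light chains along the neck and use the tail to hold membranes, organelles or cargo.

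Gene counts per library ran from 14360137 to 19608763. YES1 itself was at 357, 368 and 367 CPM in the Yes WT libraries and at 382, 411 and 435 CPM in the Yes T348I libraries, where CPM stands for counts scaled to the library total with TMM factors. Reads on no feature made up 7.40% to 7.87% of uniquely mapped reads in Yes WT and 6.37% to 6.86% in Yes T348I, ranges that do not meet, and the part of this in the results below was not tested. The YES1 counts do not separate the native from the introduced gene and do not show the mutation. The liver label had little support among hepatocyte markers: 3 of 9 had enough counts to be tested, ALB reached 10 counts at most, and the summed level of the 9 ranged over 62.7 to 67.9 CPM in Yes WT and over 52.9 to 55.6 CPM in Yes T348I, mostly FGB. None of 9 skeletal muscle, 6 cardiac muscle or 6 brush border markers had enough counts to be tested. In cultures measured in bulk, fewer cells of a type and less RNA per cell cannot be told apart.

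The 3 abundant regulatory light chain genes rose together, as given below, and their coding sequences show how alike they are. MYL12A and MYL12B are neighbours on chromosome 18, and their coding sequences of 516 and 519 bases are 95.2% identical. The coding sequence of MYL9 on chromosome 20 is also 519 bases long and is 78.6% identical to MYL12A and 80.5% to MYL12B. The same 90-base stretch near the start of each coding sequence is shown from GENCODE 29, 5′ to 3′, with capitals where a base differs from MYL12B (1 base in MYL12A and 13 in MYL9).
MYL12B: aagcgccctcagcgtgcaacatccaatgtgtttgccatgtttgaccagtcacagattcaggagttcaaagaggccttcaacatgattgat
MYL12A: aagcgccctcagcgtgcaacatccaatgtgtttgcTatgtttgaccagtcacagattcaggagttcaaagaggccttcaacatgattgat
MYL9: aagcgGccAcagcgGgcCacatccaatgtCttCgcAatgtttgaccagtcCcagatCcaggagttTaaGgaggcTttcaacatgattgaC

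Stretches of 50 bases shared with another gene made up 9.41% of the MYL12A transcript and 9.42% of the MYL12B transcript, and none of the MYL9 transcript was shared. A read from a shared stretch cannot be assigned to 1 gene, so MYL12A and MYL12B are less certain as separate values than MYL9.

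Of the 52 genes, 26 passed the filter on low counts and 26 did not. Of the 26 tested, 19 differed between the lines at an adjusted p under 0.05 (edgeR's quasi-likelihood test, Benjamini-Hochberg adjustment over all 14723 genes tested), 10 of them higher and 9 lower in Yes T348I. That is 73.1% of the tested myosin genes, against 55.3% of all genes tested (28.0% higher and 27.3% lower). Many of the tested myosin genes were abundant, and the share called among genes of like level was not determined. In the same 19 genes the values of the 2 groups did not overlap, as in 59.5% of all genes. Most changes were small. Only MYO5B, MYL5 and MYO15B changed at least 1.5-fold, 1 upwards and 2 downwards, where 12.7% of all genes did so (3.55% upwards and 9.19% downwards). The biological coefficient of variation between libraries was 2.83%, so changes well under 1.5-fold passed the test.

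**Figure D1:**
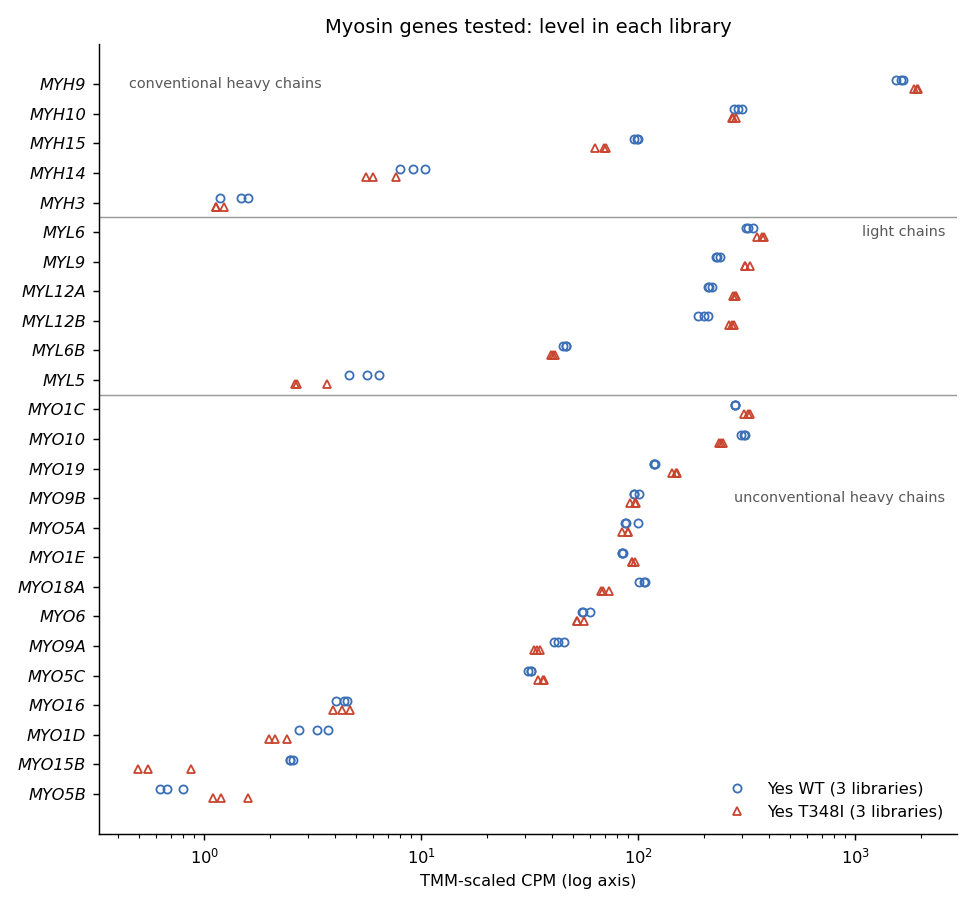
TMM-scaled CPM (horizontal log axis) of tested myosin genes in each of the 3 Yes WT libraries (circles) and 3 Yes T348I libraries (triangles), ordered by level within conventional heavy chains, light chains and unconventional heavy chains. MYH9 stands at the right with 1543 to 1954 CPM, and the least abundant tested gene, MYO5B, lies near 1 CPM.

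MYH9 encodes the heavy chain of non-muscle myosin IIA, the main motor of stress fibres in many cells, and was the most abundant myosin gene by count. Its level (ENSG00000100345.20, GRCh38 chromosome 22, 36281277 to 36388067, minus strand) was 1633, 1543 and 1658 CPM in Yes WT and rose to 1954, 1859 and 1917 CPM in Yes T348I. All 3 Yes T348I libraries lay above all 3 Yes WT libraries. The rise was 1.19-fold, which is a log2 fold change (log2FC, Yes T348I over Yes WT) of 0.25 (SE 0.03, 95% interval 0.18 to 0.31, adjusted p = 7.00e-08). Its mean count exceeded that of 99.8% of the genes tested, while the size of its change exceeded that of 52.8% of them.

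MYH10 encodes non-muscle myosin IIB, a slower motor that bears load, and did not follow MYH9. It stood at 299, 278 and 287 CPM in Yes WT and at 272, 283 and 272 CPM in Yes T348I, with overlapping groups (log2FC -0.06, SE 0.03, adjusted p = 0.110). Its 95% interval, -0.131 to 0.005, lies below that of MYH9, although the difference between the 2 genes was not tested. Scaling by upper quartiles (adjusted p = 0.0082) or by library size alone (0.012) called MYH10 lower, as did leaving out Yes T348I replicate 2 (0.046).

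The 3 other heavy chains tested were lower or undecided. MYH15, an unusual sarcomere-type heavy chain (chromosome 3, 108380369 to 108529322), fell from 99.8, 98.4 and 95.9 CPM to 63.1, 71.2 and 69.2 CPM, a log2FC of -0.54 (SE 0.04, adjusted p = 1.12e-13). MYH14, which encodes non-muscle myosin IIC, fell from 10.4, 9.14 and 7.96 CPM to 7.64, 5.97 and 5.57 CPM, a log2FC of -0.50 (SE 0.12, adjusted p = 6.39e-04). Neither pair of groups overlapped. MYH3, the embryonic skeletal heavy chain, had 16 to 26 counts per library and a log2FC of -0.29 (SE 0.27, adjusted p = 0.369). Its interval of -0.82 to 0.25 covers both directions.

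Conventional heavy chains with no signal to compare are those of differentiated muscle. MYH1, MYH2, MYH4, MYH8 and MYH13, clustered with MYH3 on chromosome 17, had no count in any library, and neither had the cardiac pair MYH6 and MYH7 on chromosome 14. A count of 0 in all 3 libraries of a group allows a level of up to 0.0663 CPM in Yes WT and of up to 0.0613 CPM in Yes T348I (3 counts of the group's total, covering counting error only). MYH11, the smooth muscle heavy chain, reached 7 counts and MYH7B reached 9.

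Levels of different genes were compared per length of their principal transcript, as a share of the summed level of their family in each library. MYH9 made up 79.7%, 79.8% and 80.7% of conventional heavy chain transcript in Yes WT and 85.0%, 83.6% and 84.6% in Yes T348I. The share of MYH10 was 14.1% ± 0.32 in Yes WT and 12.01% ± 0.48 in Yes T348I (SD, n = 3 each), and that of MYH15 was 5.21% ± 0.22 and 3.20% ± 0.25. MYH14 stood at 0.505% ± 0.068 and 0.313% ± 0.050. The groups did not overlap in any of these 4 shares, all of which move together because they sum to the whole. Over the families, 18 of 26 shares reached the smallest two-sided p that an exact permutation test of 3 against 3 libraries allows, 0.10. That p only says that the groups did not overlap, and the levels of 59.5% of all genes did not overlap either. Shares within a family depend on one another, so the 26 are not separate results. The summed level of the family was 266 ± 8.98 RPKM (CPM divided by transcript length in kilobases) in Yes WT and 299.6 ± 5.16 RPKM in Yes T348I (SD, n = 3 each).

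**Figure D2:**
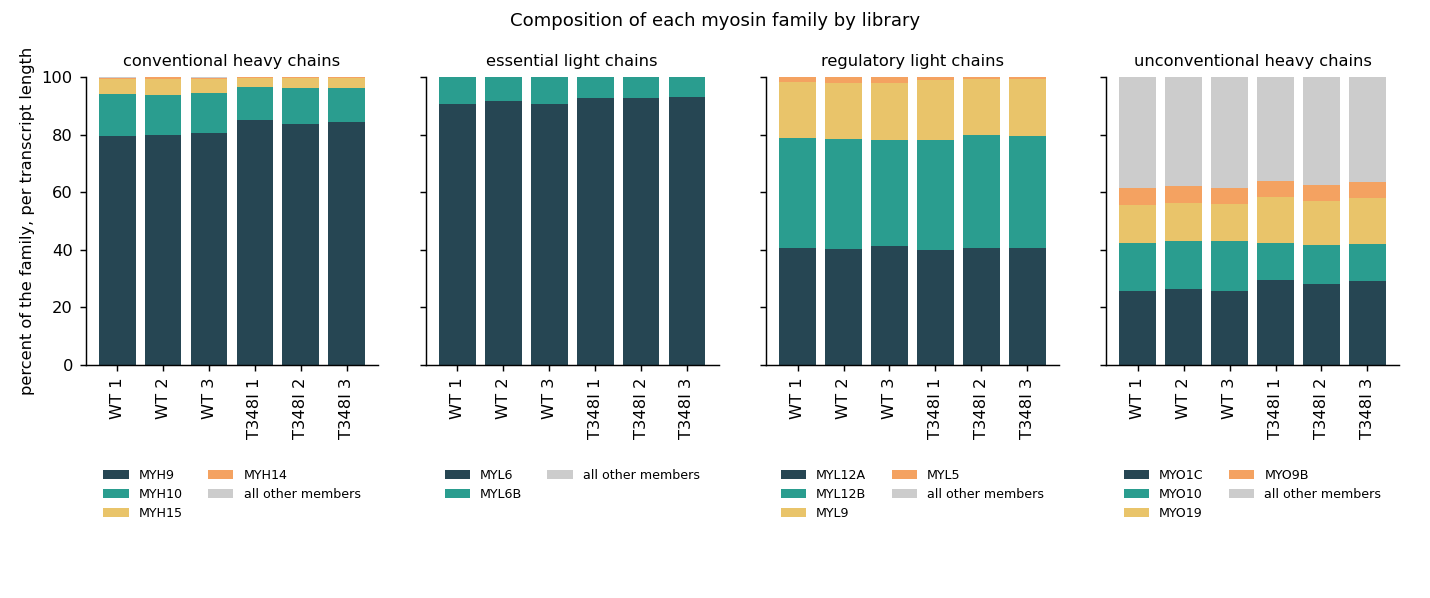
Share of each gene (percent of the summed level per transcript length, stacked to 100) in the 6 libraries, with panels for conventional heavy chains, essential light chains, regulatory light chains and unconventional heavy chains. In the first panel MYH9 takes 79.7% to 80.7% of the Yes WT bars and 83.6% to 85.0% of the Yes T348I bars, and in the third MYL5 is the thin top band that shrinks.

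All 6 light chain genes tested differed between the lines, 4 higher and 2 lower, where 55.3% of all genes were called (28.0% higher and 27.3% lower). Their values had a median log2 fold change of 0.29, against -0.01 over all genes tested. The 4 that rose were the abundant ones, and the 2 that fell were minor.

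The 3 abundant regulatory light chain genes rose by similar amounts. MYL9, the regulatory chain of smooth muscle that many adherent cells also express (ENSG00000101335.9, chromosome 20, 36541484 to 36551447), was at 231, 239 and 229 CPM in Yes WT and at 326, 309 and 310 CPM in Yes T348I. MYL12A (chromosome 18, 3247481 to 3256236) was at 211, 218 and 209 CPM and then at 273, 281 and 279 CPM. MYL12B (chromosome 18, 3261479 to 3278431) was at 201, 210 and 189 CPM and then at 263, 276 and 269 CPM. Both MYL12 genes encode the non-muscle regulatory chain, and in all 3 genes every Yes T348I library exceeded every Yes WT library. The log2FC values were 0.44 for MYL9 (SE 0.03, adjusted p = 1.17e-14), 0.38 for MYL12A (SE 0.03, adjusted p = 3.33e-13) and 0.43 for MYL12B (SE 0.04, adjusted p = 1.21e-13). Their 95% intervals, 0.37 to 0.50, 0.32 to 0.45 and 0.36 to 0.50, overlap one another. As given above, MYL9 shares no stretch of 50 bases with another gene.

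MYL5 is a low-level member of the regulatory light chain group (chromosome 4, 673580 to 682033) and moved the other way. It was at 4.64, 6.37 and 5.62 CPM in Yes WT and at 3.69, 2.68 and 2.61 CPM in Yes T348I, a log2FC of -0.85 (SE 0.16, adjusted p = 2.24e-05). The groups did not overlap, on 37 to 92 counts per library. Of its exon length, 16.7% overlaps genes on the opposite strand, ATP5ME and SLC49A3, which the strand-specific counts keep apart in large part. Among regulatory light chain transcripts its share was 1.96% ± 0.27 in Yes WT and 0.806% ± 0.17 in Yes T348I. The shares of the others moved little: MYL12A was at 40.8% ± 0.49 and 40.5% ± 0.37, MYL12B at 37.7% ± 0.79 and 38.7% ± 0.60, and MYL9 at 19.5% ± 0.28 and 20.02% ± 0.75. The order of these 3 depends on the length used, since MYL9 has coding transcripts of 1024 and 2821 bases. By total exon length, added after seeing the data, the Yes WT shares were 25.9%, 40.9% and 32.7%.

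Essential light chains clip onto the heavy chain neck beside the regulatory ones. MYL6, the essential chain of non-muscle and smooth muscle myosin (chromosome 12, 56158161 to 56163496), was at 314, 338 and 319 CPM in Yes WT and at 374, 354 and 378 CPM in Yes T348I. The rise was a log2FC of 0.19 (SE 0.03, adjusted p = 9.60e-06), and its interval, 0.12 to 0.26, lies below those of MYL9, MYL12A and MYL12B, a difference that was not tested. Its neighbour MYL6B, which encodes a second essential chain, fell from 46.5, 44.9 and 46.6 CPM to 41.2, 39.5 and 40.5 CPM (log2FC -0.19, SE 0.05, adjusted p = 0.00231). The 2 genes lie on the same strand, and 1.93% of the exon length of MYL6 and 2.73% of that of MYL6B overlap the other. MYL6 made up 91.1% ± 0.47 of essential light chain transcript in Yes WT and 93.0% ± 0.14 in Yes T348I. By total exon length, added after seeing the data, its share was 83.2% in Yes WT and 86.5% in Yes T348I. Of the 50-base stretches of MYL6, 4.81% recur in MYL6B or the pseudogene MYL6P5.

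The 7 light chain genes not tested, most of them chains of striated muscle, were at or near 0. MYL2, MYL3, MYL10 and MYL11 had no count in any library, and MYL1, MYL4 and MYL7 had at most 1 count. Of 6 smooth muscle markers, 4 were tested, and they did not move one way: SMTN rose from 76.3 ± 0.14 to 111 ± 4.18 CPM, CNN1 rose from 12.9 ± 1.17 to 17.9 ± 1.28 CPM, ACTA2 fell from 6.71 ± 1.05 to 4.47 ± 0.87 CPM, and SYNPO2 was not called (SD, n = 3 each). The summed level of the 6 markers ranged over 99.1 to 102 CPM in Yes WT and over 130 to 141 CPM in Yes T348I. DES had at most 2 counts and LMOD1 at most 5. The part of these genes in the rise of MYL9 was not tested.

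Per heavy chain, regulatory light chain transcript was more abundant in Yes T348I. The summed regulatory light chains stood at 1.56, 1.72 and 1.51 times the summed conventional heavy chains, per length, in Yes WT and at 1.82, 1.91 and 1.85 times in Yes T348I. The ranges do not meet. The same ratio for essential light chains was 1.48 ± 0.10 in Yes WT and 1.47 ± 0.032 in Yes T348I (SD, n = 3 each), with overlapping libraries. These ratios are descriptions of summed members and carry no test.

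**Figure D3:**
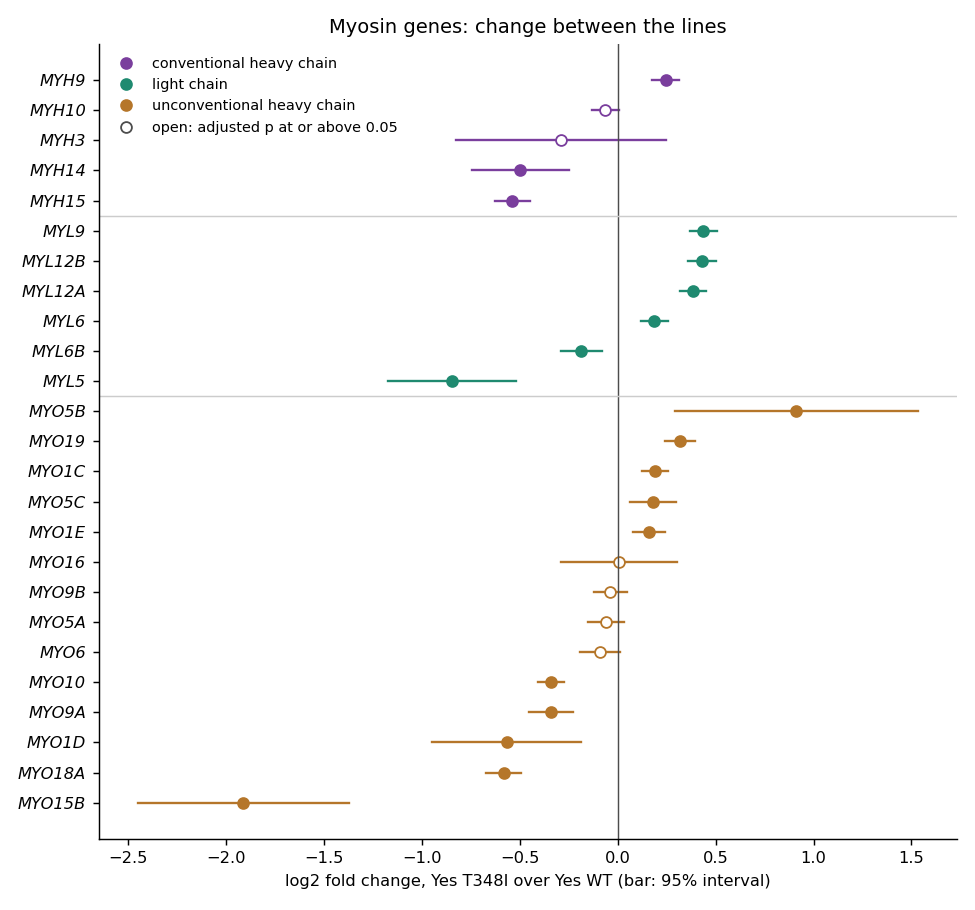
Log2 fold change, Yes T348I over Yes WT (horizontal axis), of tested myosin genes with the 95% interval, coloured by class, with open circles where the adjusted p was at or above 0.05. The abundant regulatory light chains MYL9, MYL12A and MYL12B cluster at 0.38 to 0.44, and MYO15B stands alone at -1.91.

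Unconventional myosins were called in both directions in equal number: of 15 tested genes, 5 were higher and 5 lower in Yes T348I (66.7% called, against 55.3% of all genes). Of the 11 conventional heavy and light chains tested, 5 were higher and 4 lower (81.8%). The median log2 fold change was -0.06 for the conventional and -0.04 for the unconventional genes, and the median size of the change regardless of sign was 0.38 and 0.19, against 0.23 over all genes. The difference between the classes was not tested. Summed over genes and per length, conventional heavy chain transcript stood at 1.199, 1.162 and 1.211 times unconventional heavy chain transcript in Yes WT and at 1.318, 1.299 and 1.313 times in Yes T348I. The summed unconventional level was 224 ± 3.01 RPKM in Yes WT and 229 ± 2.21 RPKM in Yes T348I (SD, n = 3 each). For both sums per length every Yes T348I library lay above every Yes WT library. For the unconventional sum the nearest libraries were at 226.5 RPKM in Yes T348I and 226.2 RPKM in Yes WT. Without division by length that sum ranged over 1406 to 1455 CPM in Yes WT and 1397 to 1413 CPM in Yes T348I, so its direction depends on the measure.

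Class I myosins are single-headed motors that link membranes to actin. MYO1C, which works in exocytosis and membrane tension and was the most abundant unconventional gene per length, was at 278, 279 and 278 CPM in Yes WT and at 327, 306 and 320 CPM in Yes T348I. It rose by a log2FC of 0.19 (SE 0.03, adjusted p = 4.24e-06). MYO1E, a long-tailed class I myosin of endocytosis and cell contacts, rose from 84.3, 84.4 and 85.0 CPM to 93.9, 96.4 and 93.6 CPM (log2FC 0.16, SE 0.04, adjusted p = 7.35e-04). In both genes the groups did not overlap. MYO1D fell from 3.30, 3.74 and 2.74 CPM to 2.41, 1.99 and 2.12 CPM, a log2FC of -0.57 (SE 0.19, adjusted p = 0.0101) that rested on 29 to 54 counts per library. Its call was lost with DESeq2 (adjusted p = 0.060) and without Yes WT replicate 2 (0.067).

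MYO10 carries cargo to the tips of filopodia, and it was the most abundant unconventional myosin by count to fall. It (chromosome 5, 16661914 to 16936276) was at 308, 297 and 310 CPM in Yes WT and at 241, 246 and 237 CPM in Yes T348I, with a log2FC of -0.34 (SE 0.03, adjusted p = 8.76e-12). Per length its share of unconventional heavy chain transcript was 17.0% ± 0.20 in Yes WT and 13.1% ± 0.33 in Yes T348I. MYO19, the motor of mitochondria (chromosome 17, 36495633 to 36543435), went the other way, from 119, 118 and 118 CPM to 151, 143 and 149 CPM, a log2FC of 0.32 (SE 0.04, adjusted p = 9.69e-10). Its share was 13.0% ± 0.16 and 15.9% ± 0.29. By this length MYO10 was above MYO19 in every Yes WT library and below it in every Yes T348I library. By total exon length, MYO10 was above MYO19 in all 6 libraries, with 16.4% against 6.78% in Yes WT and 12.9% against 8.40% in Yes T348I. Of the exon length of MYO19, 12.4% overlaps PIGW and ZNHIT3 on the opposite strand. MYO1C held the largest share, 25.9% ± 0.40 and 28.9% ± 0.71.

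MYO18A binds the Golgi protein GOLPH3 and is thought to lack motor activity of its own. It (chromosome 17, 29071124 to 29180412) fell from 106, 101 and 107 CPM to 73.6, 68.4 and 67.0 CPM, a log2FC of -0.58 (SE 0.04, adjusted p = 4.35e-15). Of its exon length 9.26% overlaps TIAF1 on the same strand, and 13.6% of its 50-base stretches recur there. Reads that fall on both genes are counted for neither, so the value of MYO18A rests on its other parts. The class IX myosins MYO9A and MYO9B carry a GTPase-activating domain in the tail. MYO9A fell from 45.5, 40.8 and 42.8 CPM to 34.1, 35.1 and 32.9 CPM (log2FC -0.34, SE 0.06, adjusted p = 1.84e-06). MYO9B was at 95.4 to 101 CPM and at 91.1 to 97.2 CPM, with overlapping groups (log2FC -0.04, SE 0.04, adjusted p = 0.458).

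Class V myosins walk towards the barbed end of actin and carry vesicles, and MYO6 walks the opposite way. MYO5C, found in secretory epithelia, rose from 32.1, 30.9 and 32.1 CPM to 36.4, 36.8 and 34.6 CPM (log2FC 0.18, SE 0.06, adjusted p = 0.00736). MYO5B, a motor of recycling endosomes, was at 0.672, 0.623 and 0.802 CPM in Yes WT and at 1.59, 1.10 and 1.199 CPM in Yes T348I. Its groups did not overlap, and the log2FC was 0.91 (SE 0.31, adjusted p = 0.0111), from 9 to 31 counts per library. This call was lost with DESeq2 (adjusted p = 0.077), with unstranded counts (log2FC 0.46, adjusted p = 0.213) and without Yes T348I replicate 1 (adjusted p = 0.0996). Of its 50-base stretches 6.44% recur in other genes, among them its pseudogenes.

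MYO5A and MYO6 stayed within the spread between libraries. MYO5A was at 86.8 to 99.5 CPM and at 83.9 to 89.98 CPM (log2FC -0.06, SE 0.05, interval -0.15 to 0.03, adjusted p = 0.281). MYO6 was at 55.0 to 59.9 CPM and at 51.9 to 56.4 CPM (log2FC -0.09, SE 0.05, interval -0.19 to 0.01, adjusted p = 0.119). MYO6 was called lower with upper quartile scaling (adjusted p = 0.023), with library size alone (0.029) and without Yes T348I replicate 2 (0.039).

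MYO15B had the largest change of the tested myosin genes. It (chromosome 17, 75588058 to 75626501) is a relative of the hearing myosin MYO15A and was at 2.57, 2.49 and 2.47 CPM in Yes WT and at 0.872, 0.549 and 0.494 CPM in Yes T348I. Every Yes WT library lay far above every Yes T348I library. The log2FC was -1.91 (SE 0.27, adjusted p = 6.96e-08), from 7 to 42 counts per library. Its change was larger than that of 99.7% of the genes tested, while its mean level exceeded that of 12.6% of them. MYO16, which carries ankyrin repeats, was at 4.03 to 4.57 CPM and 3.91 to 4.72 CPM, and its log2FC of 0.01 (SE 0.15, adjusted p = 0.976) has an interval of -0.29 to 0.30.

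The other 10 unconventional genes were not tested. MYO3A had no count. MYO1F, a myosin of leukocytes, reached 10 counts, MYO1A and the brush border myosin MYO7B reached 4 and 3, MYO3B reached 3, MYO1G and MYO15A reached 2, and MYO1H, MYO7A and MYO18B reached 1. The leukocyte marker CD3E and the blood marker HBB had no count. The summed level of the 7 leukocyte and blood markers ranged over 2.42 to 2.94 CPM in Yes WT and over 0.353 to 1.23 CPM in Yes T348I, mostly CD14.

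Promoter sequence was examined because several members moved together. RefSeq windows (GRCh38.p14) of 250 bases before a start site were at hand for 23 of the 26 tested genes, in 32 windows. The letters GGAATG, the core bound by TEAD factors, were sought on both strands, as was the CArG box bound by SRF, which is CC, any 6 of A or T, then GG. GGAATG stood in 2 of the 32 windows, those of MYH9 and MYH10, and in 11.9% of all 35116 windows. A CArG box stood in 1 of the 32, that of MYO1E, and in 1.16% of all windows. The 3 windows are printed 5′ to 3′ along the gene, each ending at the base before the start site, with the match in capitals. They are MYH9 at chr22:36387968-36388217, MYH10 at chr17:8630726-8630975 and MYO1E at chr15:59372872-59373121, all on the minus strand.
MYH9: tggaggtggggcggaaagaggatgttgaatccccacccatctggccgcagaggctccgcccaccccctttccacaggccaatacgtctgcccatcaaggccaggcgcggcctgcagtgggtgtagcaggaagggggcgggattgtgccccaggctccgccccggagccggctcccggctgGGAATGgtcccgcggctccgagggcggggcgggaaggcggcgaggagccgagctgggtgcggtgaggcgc
MYH10: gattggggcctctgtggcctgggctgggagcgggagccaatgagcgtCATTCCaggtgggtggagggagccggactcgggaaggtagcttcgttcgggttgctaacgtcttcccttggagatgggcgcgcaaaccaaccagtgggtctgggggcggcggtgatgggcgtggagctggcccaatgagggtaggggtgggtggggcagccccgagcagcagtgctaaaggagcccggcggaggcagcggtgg
MYO1E: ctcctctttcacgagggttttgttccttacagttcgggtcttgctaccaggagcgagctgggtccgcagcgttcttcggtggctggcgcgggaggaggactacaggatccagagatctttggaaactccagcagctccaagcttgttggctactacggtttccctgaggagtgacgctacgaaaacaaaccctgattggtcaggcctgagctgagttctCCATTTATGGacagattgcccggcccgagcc

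The match begins 70 bases before the start site in MYH9, 203 bases before it in MYH10 (on the opposite strand) and 31 bases before it in MYO1E. MYH9 and MYO1E rose and MYH10 was not called. No MYL12A or MYL12B window held either motif, and MYL9 and MYH3 were not among the genes with a window. A match here is a description of letters and not a bound site.

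Of 24 listed genes that set the phosphorylation of the regulatory light chain, 19 were tested, and 8 were higher and 4 lower in Yes T348I. The 63.2% called is near the 55.3% of all genes. The small GTPases RHOB and RHOA act at the head of the pathway. RHOB rose from 25.7 ± 0.73 to 36.2 ± 2.39 CPM (log2FC 0.50, SE 0.06, adjusted p = 4.54e-09) and RHOA from 363 ± 3.58 to 418 ± 4.15 CPM (0.20, SE 0.03, adjusted p = 4.24e-07). Their effector kinases ROCK2 (0.24, adjusted p = 4.16e-06) and ROCK1 (0.11, adjusted p = 0.0267, with overlapping groups) rose by less than 1.2-fold. Among kinases, MYLK, the calmodulin-dependent light chain kinase, rose from 95.8 ± 2.52 to 115 ± 1.93 CPM (0.26, SE 0.04, adjusted p = 2.59e-07), and DAPK3 from 51.7 ± 0.79 to 68.3 ± 4.05 CPM (0.40, SE 0.05, adjusted p = 2.23e-09). The related kinases DAPK1 (-0.29, SE 0.05, adjusted p = 3.97e-06) and DAPK2 (-0.62, SE 0.25, adjusted p = 0.034, with overlapping groups) were lower. CDC42BPA, the kinase MRCK alpha, fell from 250.4 ± 13.9 to 213 ± 12.3 CPM (-0.24, SE 0.04, adjusted p = 1.23e-06). On the phosphatase side, PPP1R14B, of a family of inhibitors of myosin phosphatase, rose from 81.7 ± 1.19 to 110 ± 3.91 CPM (0.43, SE 0.04, adjusted p = 4.84e-12). PPP1R14A of the same family fell from 2.28 ± 0.37 to 1.502 ± 0.25 CPM (-0.58, SE 0.23, adjusted p = 0.028). The targeting subunit PPP1R12A also rose, while the catalytic subunit PPP1CB was not called (-0.06, adjusted p = 0.164). RHOC, CDC42BPB, CIT, MYLK4, PPP1R12B and PPP1R12C were not called either. The list's median log2FC was -0.01, as over all genes.

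Of 20 listed genes of myosin II folding and filaments, 13 were tested, and 5 were higher and 5 lower (76.9% called, against 55.3% of all genes). The median size of their change, regardless of sign, was 0.41 on the log2 scale, against 0.23 over all genes. SVIL, which encodes supervillin, a scaffold that binds myosin II and the light chain kinase, fell from 497 ± 11.7 to 245 ± 5.95 CPM (log2FC -1.02, SE 0.03, adjusted p = 3.80e-27). LLGL2, a polarity protein whose fly homologue binds myosin II, fell from 30.6 ± 1.43 to 13.95 ± 1.37 CPM (-1.12, SE 0.07, adjusted p = 1.29e-16). ANLN, which encodes anillin, the scaffold of the cytokinetic ring, rose from 582 ± 2.23 to 885 ± 51.2 CPM (0.60, SE 0.03, adjusted p = 1.34e-18). LIMCH1, an activator of non-muscle myosin II, rose from 10.7 ± 0.67 to 16.8 ± 0.90 CPM (0.64, SE 0.09, adjusted p = 3.41e-08). The chaperone HSP90AA1, which helps fold the myosin motor among many other clients, rose from 4470 ± 82.1 to 5938 ± 258 CPM (0.41, SE 0.04, adjusted p = 8.49e-13), and HSP90AB1 rose by 0.28 (SE 0.03, adjusted p = 1.99e-09). The sarcomere genes MYOM1 and MYOM2 were near 1 CPM or below and not called.

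Of 25 listed partners of the unconventional myosins, 20 were tested, and 5 were higher and 7 lower. The 60.0% called is near the 55.3% of all genes. CALM2 and CALM3 encode calmodulin, the neck light chain of many unconventional myosins. CALM2 rose from 337 ± 17.4 to 507 ± 3.83 CPM (log2FC 0.59, SE 0.03, adjusted p = 1.22e-18) and CALM3 by 0.21 (SE 0.03, adjusted p = 4.04e-07). MLPH, melanophilin, which links MYO5A to organelles carrying RAB27A, fell from 287 ± 1.12 to 208 ± 7.94 CPM (-0.47, SE 0.03, adjusted p = 2.10e-15). The MYO6 adaptors TOM1, from 24.0 ± 0.93 to 14.3 ± 1.59 CPM (-0.74, SE 0.08, adjusted p = 9.83e-11), and TOM1L2, from 43.1 ± 3.84 to 32.2 ± 1.72 CPM (-0.41, SE 0.06, adjusted p = 2.29e-07), fell as well. MYO5A and MYO6 themselves were not called.

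**Figure D4:**
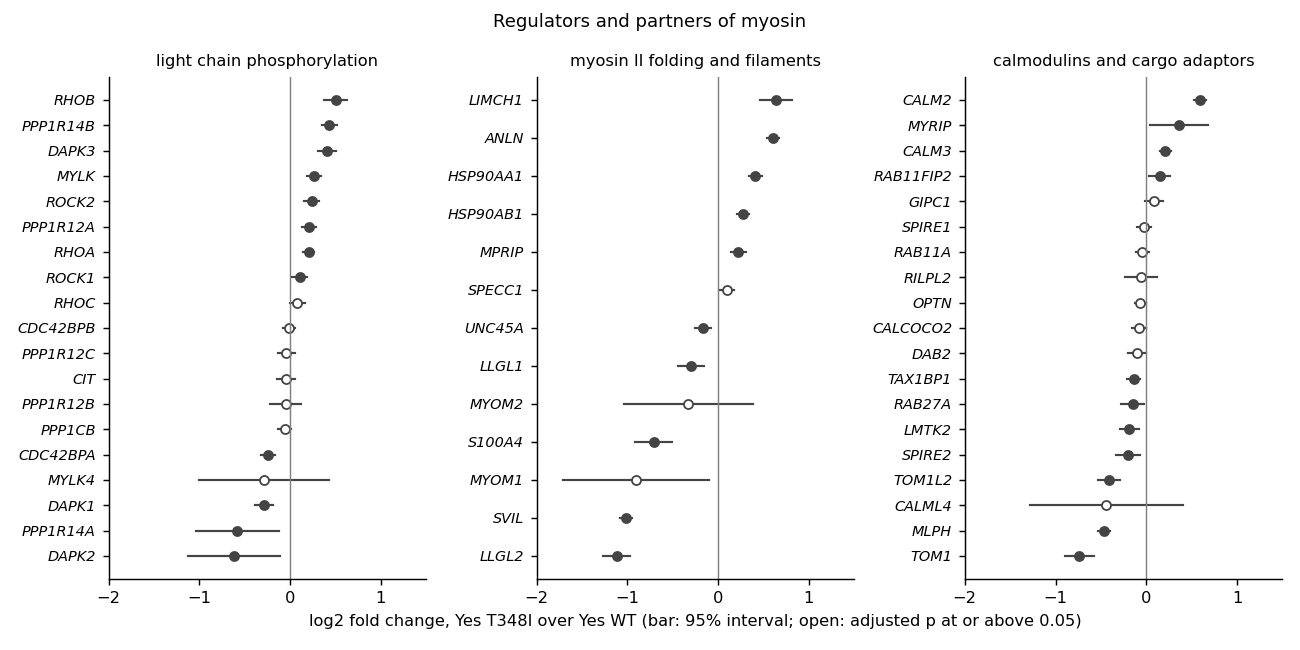
Log2 fold change, Yes T348I over Yes WT (horizontal axis), with 95% interval for tested genes of the 3 partner lists, with open circles where the adjusted p was at or above 0.05. SVIL and LLGL2 lie near -1 in the middle panel, and CALM2 and CALM3 lie to the right of 0 in the last.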

How the data were processed

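Each library has 1 deposited table of unnormalised read counts per gene, in the layout STAR writes (unstranded, forward and reverse strand). Per the submitters' processing notes, the GRCh38 build, STAR 2.5.1b, Trimmomatic 0.35 and CASAVA 1.8.2 were used, with no role or order stated. Which gene annotation was counted is not stated in the sources at hand. The labels' protocols give a stranded polyA kit, and the reverse-strand counts were used, since the forward column held 6.13% to 6.59% as many. Reads on no feature (7.40% to 7.87% in Yes WT, 6.37% to 6.86% in Yes T348I) or on several genes (3.11% to 3.15%), per the summary lines of the deposited counts, stayed out of library sizes. Reads that map to several places are not counted in this layout, which lowers genes with close copies.

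The test was run with edgeR 4.0.16 in R 4.3.3 on these counts (filterByExpr with minimum count 10, TMM, quasi-likelihood F-test of Yes T348I against Yes WT, no covariate, adjusted p threshold 0.05), and the script was tested on simulated data. Intervals are 95%. Their standard errors combine the spread between 3 libraries a group with variance pooled over all genes tested. Symbols, biotypes and positions came from GENCODE 29, which held 57881 of the 58219 identifiers. Levels between genes were divided by the length of the longest principal transcript. Promoter windows were searched over the 250 bases before the RefSeq start site, and the bases after that site were left out. Some windows, those of MYH9 and MYO1E among them, still hold bases that GENCODE 29 places inside the gene.

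The tested myosin genes are named, and of each partner list the 6 with lowest adjusted p, apart from a few genes that are not reported here and are left out of the plots but not of the counts. ROCK1, ROCK2, DAPK1, DAPK2, PPP1R12A, PPP1R14A, PPP1CB, RHOC, CDC42BPB, CIT, MYLK4, PPP1R12B, PPP1R12C, MYOM1 and MYOM2 were named after their values were seen. The members and lists were chosen with earlier results of these data known. Alternatives were DESeq2 1.42.0 (size factors and Wald test), upper quartile factors, library size alone, 2 other filters, limma-voom (limma 3.58.1), unstranded counts, a replicate block and leaving out each library. Protein sequences were not used here, and coding sequences took their place.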

Additional observations from a re-analysis of the deposited data

How the results depend on the processing

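Of the 26 tested myosin genes, 20 kept their direction and their side of the threshold under all 15 alternatives. The exceptions were MYH10, MYO1D, MYO5A, MYO5B, MYO6 and MYO16. MYO5A, not called, ran from a log2 fold change of -0.094 to 0.0094 over the 6 fits that each leave out a library, positive in the fit that drops Yes WT replicate 1. MYO16, not called and near 0, was at -0.034 with upper quartile factors and -0.031 with library size alone, and ran from -0.068 to 0.072 over those 6 fits. The causes were not tested. The number of myosin genes called ran from 17 (DESeq2) to 21, and of all genes from 6656 (DESeq2) to 8191. The median log2 fold change of conventional minus unconventional genes, -0.03, was -0.10 with unstranded counts and ran from -0.0715 to 0.000704 when a library was left out, so its sign is not settled. The difference of the ratio of essential light to heavy chains, -0.0147, ran from -0.0481 to 0.0440 when a library was left out, with the highest value without Yes WT replicate 2. By total exon length, added after seeing the data, the difference of the ratio of regulatory light to heavy chains was 0.211 in place of 0.269 and that of conventional to unconventional heavy chains 0.195 in place of 0.119. Scaling by upper quartiles or library size moved the median of all genes from -0.01 to -0.05. With a replicate block 7990 genes and the same number of myosin genes, 19, were called. Libraries with the same number did not deviate together (correlations of -0.045, 0.008 and -0.016), and each Yes WT library correlated best with another number. MYH3, MYH14, MYL5, MYO1D, MYO5B, MYO15B and MYO16 rest on at most 170 counts per library, which limits their precision.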

Other observations

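Another 22 annotated genes carry a myosin symbol without being protein-coding, as antisense transcripts, divergent transcripts or pseudogenes. MYH16, a heavy chain pseudogene in humans, had a mean of 3.06 ± 0.62 CPM in Yes WT and of 3.50 ± 0.33 CPM in Yes T348I (SD, n = 3 each; log2 fold change 0.18, edgeR adjusted p = 0.385). The processed pseudogenes of MYL12A, MYL12B and MYL6 had at most 6 counts in any library.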
